A study of Mus musculus with 3 samples.

Results

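The IGF2BP, LIN28 and HMGA genes form a small set of oncofetal genes, so called because they are active in the embryo, are silent or low in most adult tissues and return in many tumours. The 7 mouse members were taken by symbol from a named list, *Igf2bp1*, *Igf2bp2*, *Igf2bp3*, *Lin28a*, *Lin28b*, *Hmga1* and *Hmga2*, and all 7 were found among the 22698 genes measured. RNA-seq was performed on untreated melan-a cells, an immortalized line of mouse melanocytes on a C57BL/6J background. The labels state that the cells came from mice lacking Ink4a-ARF, and all samples share this origin. The cells were grown with 10% serum, 200 nM of the phorbol ester 12-O-tetradecanoylphorbol 13-acetate and 200 pM cholera toxin. There were 3 replicates, labelled 1, 3 and 4, of this 1 line in this 1 condition. With no second group, genes were compared with each other within the same libraries and no treated or control cells were compared.

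IGF2BP proteins bind mRNAs in the cytoplasm, where they protect them from decay and influence their translation and localisation. LIN28 proteins bind the precursors of the let-7 microRNA and block their maturation, and TUT4 or TUT7 then adds a uridine tail that marks the precursor for degradation. HMGA proteins are small chromatin proteins that bend AT-rich DNA. The groups are linked in textbooks through let-7, which rises as cells differentiate and represses *Lin28a*, *Lin28b*, *Hmga2* and *Igf2bp* mRNAs through sites in their 3' UTRs.

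The let-7 family shares 1 seed, bases 2 to 8 of the mature microRNA. In RefSeq (GRCm38.p6) it was found in 11 mouse mature forms, of which 5 are shown because they differ outside the seed while the seed, in capitals, is the same.
mmu-let-7a-5p: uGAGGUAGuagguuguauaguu
mmu-let-7d-5p: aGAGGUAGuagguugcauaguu
mmu-let-7e-5p: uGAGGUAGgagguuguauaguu
mmu-let-7g-5p: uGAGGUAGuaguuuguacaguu
mmu-miR-98-5p: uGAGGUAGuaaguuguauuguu

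The letters that pair with this seed, CTACCTC, were searched on the transcript strand of the longest annotated 3' UTR of each gene, in the mm9 genome. All 4 matches of *Hmga2* are shown because it is the member with both many matches and a high level, and the match nearest the stop codon is shown for each other member. Each line gives 30 bases, 5' to 3' along the transcript, with the match in capitals.
Hmga2, match 1 (chr10:119801280-119801309, minus strand): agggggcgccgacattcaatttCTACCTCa
Hmga2, match 2 (chr10:119800043-119800072, minus strand): caataatccccactcctcaataCTACCTCt
Hmga2, match 3 (chr10:119799605-119799634, minus strand): ggacttcctgatttgcaaggaaCTACCTCc
Hmga2, match 4 (chr10:119798747-119798776, minus strand): gttgtacaatcaaaacacactaCTACCTCt
Hmga1, match 1 (chr17:27700215-27700244, plus strand): catcttctcctctgttcacaaaCTACCTCt
Igf2bp1, match 1 (chr11:95823092-95823121, minus strand): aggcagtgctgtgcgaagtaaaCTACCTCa
Igf2bp2, match 1 (chr16:22059546-22059575, minus strand): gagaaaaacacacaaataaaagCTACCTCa
Igf2bp3, match 1 (chr6:49036786-49036815, minus strand): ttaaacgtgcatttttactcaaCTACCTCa
Lin28a, match 1 (chr4:133561104-133561133, minus strand): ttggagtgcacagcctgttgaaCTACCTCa
Lin28b, match 1 (chr10:45100828-45100857, minus strand): tcccttcacccgggcgggaagtCTACCTCa

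Values were deposited as FPKM, which divides the reads of a gene by its length and by the size of the library, and this per-length scale was used for every comparison of levels between genes. Low values of single-transcript genes fell close to whole reads, which gave scaled library sizes of 47000000 to 66500000 reads. The cells carried the markers of their label. Of 10 melanocyte markers, 9 were at 1 FPKM or more in every replicate, compared with 44.1% of all genes. The 10 markers summed to 5823 to 6662 FPKM. Only the receptor gene *Kit* was below 1 FPKM, at 0.67, 0.59 and 0.78 FPKM. The 7 fibroblast markers summed to 1.62 to 1.97 FPKM and the 7 keratinocyte markers to 0.38 to 0.72 FPKM. Most of these sums came from *Col1a1*, at 1.51, 1.77 and 1.33 FPKM, and from *Krt10*, at 0.51, 0.29 and 0.67 FPKM. *Col1a1* was thus at 1 FPKM or more in every replicate. *Lum*, *Krt1*, *Trp63* and *Dsg3* were listed at 0 in all 3 replicates. The labels number the samples without naming separate cultures, so the SDs measure the spread between these samples, which may be technical. The p-values rest on the same samples.

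One member of the IGF2BP family and both HMGA genes were strongly expressed, and neither LIN28 gene was seen. Of the 7 members, 4 were at 1 FPKM or more in all 3 replicates (*Igf2bp2*, *Igf2bp3*, *Hmga1* and *Hmga2*), against 44.1% of all genes in the files, so the share is not far from the background. The median of the mean levels was 1.29 FPKM over the 7 members and 0.277 FPKM over all genes. Over the genes at 1 FPKM or more in all replicates it was 11.2 FPKM. Both LIN28 genes were listed at 0 in all 3 replicates, as were 31.4% of all genes. *Hmga1* and *Hmga2* were at 100 FPKM or more in all 3 replicates, a level that 2.17% of all genes reached. In bulk RNA, a gene that is low in every cell cannot be told apart from one that is expressed in few cells.

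**Figure D1:**
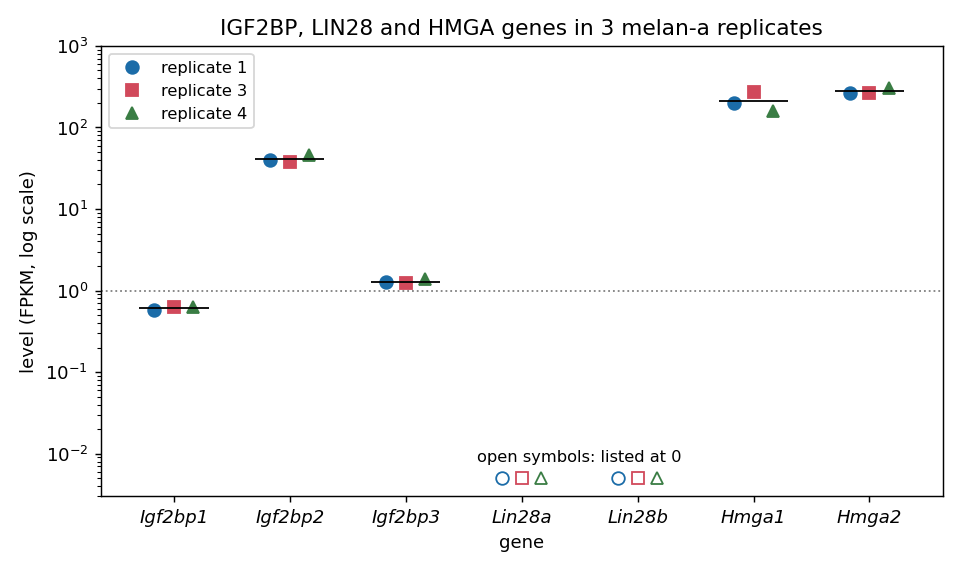
Level of each gene in FPKM (log scale) in replicates 1, 3 and 4, with a line at the mean and a dotted line at 1 FPKM. *Hmga1*, *Hmga2* and *Igf2bp2* sit between 37.29 and 305.07 FPKM, *Igf2bp1* and *Igf2bp3* near 1 FPKM, and both LIN28 genes, drawn as open symbols at the foot of the axis, are listed at 0.

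*Igf2bp2* (ENSMUSG00000033581, chr16:22059082-22163372, minus strand) encodes the family member that is also present in adult tissues, where it is known for its role in metabolism. Its values were 39.83, 37.29 and 45.41 FPKM (in the order of replicates 1, 3 and 4, used throughout), and they averaged 40.84 ± 4.15 FPKM (SD, n = 3). It ranked 1696 of 22698 genes, and 7.47% of all genes were higher. The 3 replicates lay close together, with a coefficient of variation of 10.2%, and 43.6% of the 10237 genes with a mean of 1 FPKM or more varied less. The median of the genes at 1 FPKM or more in all replicates was 11.2 FPKM, below each of the 3 values of *Igf2bp2*.

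*Igf2bp3* (ENSMUSG00000029814, chr6:49035220-49164953, minus strand) encodes a paralog that is used as a tumour marker in pathology. It was measured at 1.26, 1.23 and 1.39 FPKM, with a mean of 1.29 ± 0.085 FPKM (SD, n = 3) and rank 9956. At the estimated library sizes these values stood for about 295, 251 and 402 reads, so the gene was low but well counted. The 3' end of the coding gene *2410003K15Rik*, at 2.89 FPKM, overlaps its 3' end on the other strand. The kit kept the strand, but the strand setting used in counting is not given in the sources used here. Reads from the overlap could therefore have been counted for *Igf2bp3*, for the other gene or for neither.

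*Igf2bp1* (ENSMUSG00000013415, chr11:95818477-95867254, minus strand) encodes a member known mainly from fetal tissues. Its level was 0.57, 0.63 and 0.63 FPKM, with a mean of 0.61 ± 0.0346 FPKM (SD, n = 3) and rank 10698. The annotated exons of this gene join to 9682 bases, so even these low values stood for about 297, 287 and 406 reads. All 3 replicates were far from 0 and all were below 1 FPKM.

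The IGF2BP family was thus made up almost wholly of *Igf2bp2* mRNA. Of the summed FPKM of the 3 paralogs, *Igf2bp2* took 95.6%, 95.2% and 95.7%, while *Igf2bp3* took a mean of 3.03% and *Igf2bp1* 1.44%. The ratio of the FPKM of *Igf2bp2* to that of *Igf2bp3* was 31.6, 30.3 and 32.7 in the 3 replicates. On the log2(FPKM + 0.1) scale the difference was 4.87 ± 0.06 (SD, n = 3), in the same direction in 3 of 3 replicates (exact two-sided sign-flip permutation test, p = 0.25, adjusted p = 0.35 over 7 pairs). The ratio of *Igf2bp2* to *Igf2bp1* was 69.9, 59.2 and 72.1, a log2 difference of 5.85 ± 0.15 (the same exact test, p = 0.25, adjusted p = 0.35). Between the lower members, the FPKM of *Igf2bp3* was 2.21, 1.95 and 2.21 times that of *Igf2bp1*, a log2 difference of 0.97 ± 0.09 (the same exact test, p = 0.25, adjusted p = 0.35). With 3 pairs an exact two-sided p cannot go below 0.25, so no pair could pass 0.05. The ranges of the 3 paralogs did not overlap, and each difference was many times larger than its SD between replicates.

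The sequences of the paralogs are far enough apart that reads could be assigned to 1 of them. Their coding sequences were 65.3% identical between *Igf2bp1* and *Igf2bp2*, 67.9% between *Igf2bp1* and *Igf2bp3* and 65.3% between *Igf2bp2* and *Igf2bp3*. No stretch of 50 bases was shared by any pair of the transcripts compared. No 50-base stretch of the longest coding transcript of each of the 3 genes occurred elsewhere in mm9, and exons outside these transcripts were not searched. The length of 50 was set here, since the read length is not given in the sources used here.

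*Lin28a* (ENSMUSG00000050966, chr4:133559245-133574756, minus strand) and *Lin28b* (ENSMUSG00000063804, chr10:45096426-45206201, minus strand) encode the let-7 blockers of embryonic stem cells and early development. Both were listed at 0 in replicates 1, 3 and 4. Values were rounded to 2 decimals, and for *Lin28a*, whose single transcript has 3505 bases, 1 read would come to 0.0053, 0.0061 and 0.0043 FPKM. A single read would therefore have shown as 0.01 FPKM in replicates 1 and 3, and at most 1 read could be hidden by rounding in replicate 4. For *Lin28b*, with 9065 joined exon bases, up to 2, 2 and 3 reads could be hidden. Of the 50-base windows of *Lin28a*, 10.8% also occur on chromosome 7, and none of those of *Lin28b* occur elsewhere. The sum of 16 pluripotency and germ line genes, which mark the cells where LIN28 is best known, was 0.11, 0.22 and 0.23 FPKM. Of these, 8 were listed at 0 throughout, *Pou5f1* among them, compared with 31.4% of all genes. The highest of the 16, the germ cell gene *Nanos3*, was at 0.05, 0.15 and 0.12 FPKM. No order of *Lin28a* and *Lin28b* could be given (exact sign-flip permutation test, p = 1).

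*Hmga2* (ENSMUSG00000056758, chr10:119798331-119913525, minus strand), the fetal HMGA gene, was the highest of the 7 members by mean. Its values were 263.26, 265.17 and 305.07 FPKM, averaging 277.83 ± 23.6 FPKM (SD, n = 3), and the highest was that of replicate 4. It ranked 168 of 22698 genes, with 0.736% of genes higher, and its highest value was 1.16 times its lowest. This placed it within the range of the pigment cell markers, above *Tyr*, the rate-limiting enzyme of melanin synthesis, at 72.53, 59.2 and 74.43 FPKM, and below *Tyrp1*, a melanosomal enzyme, at 3331.02, 2647.8 and 3452.01 FPKM. Of the markers listed, *Tyr*, *Mitf*, *Slc45a2*, *Slc24a5* and *Kit* had lower means than *Hmga2*, while *Tyrp1*, *Dct*, *Pmel*, *Mlana* and *Sox10* had higher ones.

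*Hmga1* (ENSMUSG00000046711, chr17:27693565-27700619, plus strand) encodes the related protein that is common in dividing cells. Its values were 200.84, 276.1 and 157.67 FPKM, averaging 211.54 ± 59.9 FPKM (SD, n = 3), which gave rank 226. Replicate 3 was the highest and replicate 4 the lowest. It was the most variable of the members seen. Its highest value was 1.75 times its lowest, and its coefficient of variation of 28.3% was above that of 92.5% of the genes with a mean of 1 FPKM or more.

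*Hmga2* and *Hmga1* could not be ordered. The ratio of the FPKM of *Hmga2* to that of *Hmga1* was 1.31, 0.96 and 1.93, below 1 in replicate 3 only, so *Hmga2* was higher in 2 of 3 replicates and the ranges overlapped. On the log2(FPKM + 0.1) scale the difference was 0.43 ± 0.51 (SD, n = 3; exact sign-flip permutation test, p = 0.5, adjusted p = 0.583 over 7 pairs). The SD was larger than the mean difference, and without replicate 4 the mean difference was 0.17, without replicate 3 it was 0.67. *Hmga2* took 56.7%, 49% and 65.9% of the summed FPKM of the pair.

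**Figure D2:**
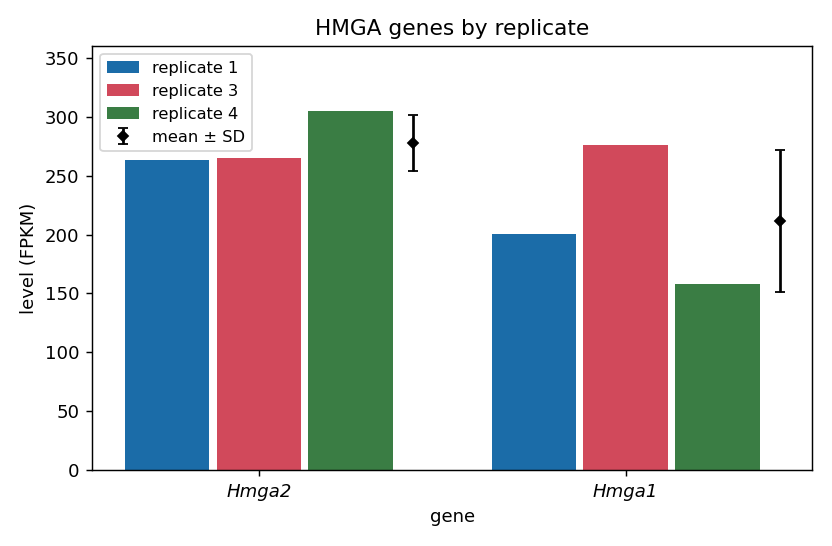
Level in FPKM of *Hmga2* and *Hmga1*, with 1 bar per replicate and a diamond with error bars for the mean ± SD (n = 3). *Hmga1* is highest in replicate 3 and lowest in replicate 4, whereas *Hmga2* is highest in replicate 4.

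The level of *Hmga1* itself is uncertain, since 67.7% of the 50-base windows of its transcript occur elsewhere in mm9, and how reads with several places in the genome were treated is not given in the sources used here. Of the windows of *Hmga2*, 26.4% occur elsewhere, most of them (952) on chromosome 1 within the gene *Sdccag8*. To allow for reads of such windows having been dropped, the deposited FPKM was divided by the share of single-copy windows. This gave 622, 855.1 and 488.3 for *Hmga1* and 357.8, 360.4 and 414.7 for *Hmga2*. On this scale *Hmga1* was higher in 3 of 3 replicates (log2 difference of -0.76, exact sign-flip permutation test, p = 0.25). The share came from the longest coding transcript only and the length behind the FPKM was left unchanged. Share and length may therefore not match for *Hmga2*, and this order holds for this calculation only. The length used also matters for *Hmga2*, whose joined exons have 6772 bases and whose longest transcript has 3810. With FPKM recomputed for the length of the longest transcript, *Hmga2* was at 467.9, 471.3 and 542.2 FPKM and *Hmga1* at 210.6, 289.5 and 165.3 FPKM. The lengths behind the deposited values of genes with several transcripts are not given in the sources used here. Both genes were above 100 FPKM in all replicates on each of these scales. The coding gene *AI413582*, at 38.77 FPKM, overlaps the 3' end of *Hmga1* on the other strand, and 2 annotated noncoding genes, *1700006J14Rik* and *9230105E05Rik*, lie opposite *Hmga2* and were not analysed here.

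Replicates 3 and 4 differed in a way that followed base composition. Over 10006 genes, the log2 ratio of replicate 3 to replicate 4 rose with the GC content of the transcript, and *Hmga1*, at 61.2% GC, was richer in GC than 97.3% of them. Its log2 ratio was 0.81, where the trend at its GC content was 0.55, and 1.02% of the genes had a higher ratio. *Hmga2*, at 45.7% GC, had a log2 ratio of -0.2 where the trend was -0.29. After removal of the trend, *Hmga1* came to 192.7, 232.5 and 194.9 FPKM and its coefficient of variation fell from 28.3% to 10.8%. *Hmga2* came to 263, 293.5 and 275.8 FPKM, so that it was above *Hmga1* in 3 of 3 replicates, by a mean log2 difference that stayed at 0.43. For *Igf2bp2*, at 51.3% GC, the log2 ratio went from -0.28 to -0.35 and the coefficient of variation from 10.2% to 12.4%.

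**Figure D3:**
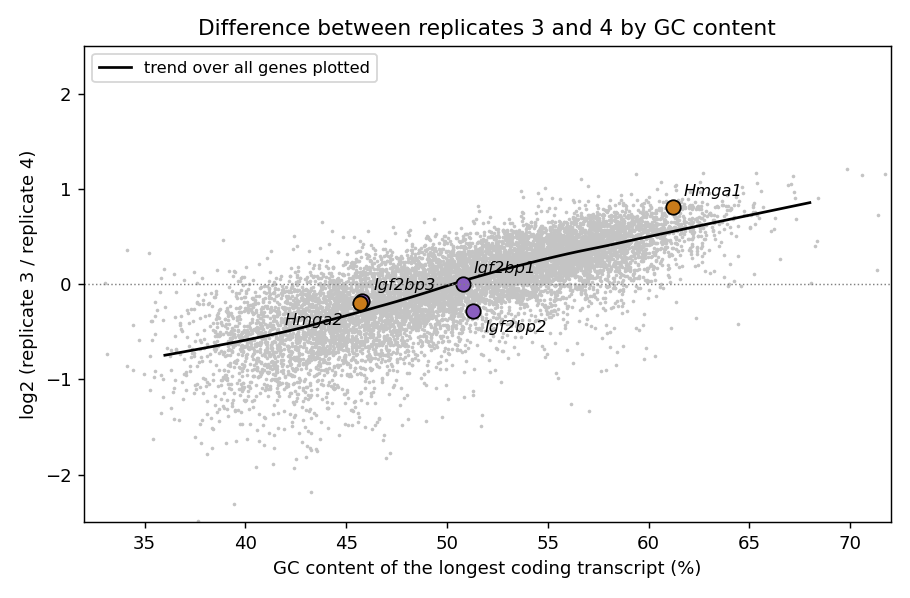
The log2 ratio of replicate 3 to replicate 4 against the GC content of the longest coding transcript (percent), with 1 grey point per gene, a black line for the trend and filled circles for the 5 members above 0. A few grey points beyond the axes are not drawn. *Hmga1* lies at the GC-rich end at 0.81, and *Hmga2* and *Igf2bp3* lie together near 46% GC at -0.2 and -0.18.

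In descending mean FPKM the order was *Hmga2*, *Hmga1*, *Igf2bp2*, *Igf2bp3*, *Igf2bp1* and then both LIN28 genes at 0. Of the 6 neighbouring pairs, 4 had ranges that did not overlap. The exceptions were *Hmga2* and *Hmga1*, and *Lin28a* and *Lin28b*. *Hmga1* stood above *Igf2bp2* by 5.04, 7.4 and 3.47 times in FPKM (log2 difference 2.34 ± 0.55, exact sign-flip permutation test, p = 0.25, adjusted p = 0.35). *Igf2bp1* stood above the LIN28 genes in 3 of 3 replicates (exact sign-flip permutation test, p = 0.25, adjusted p = 0.35), and no fold is given against a gene listed at 0.

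All 7 members had at least 1 let-7 seed match in the longest annotated 3' UTR, compared with 8.79% of the 19962 coding genes examined. This share was not adjusted for length. The 3' UTRs of the members were long, with 0.922% (*Igf2bp1*) to 40.6% (*Hmga1*) of genes having a longer one. Several members are textbook targets of let-7, so the count is not independent of what unites the genes. A match describes letters only and was not tested as a site. *Igf2bp1*, *Lin28b* and *Hmga2* had 4 matches each, and 0.0451% of genes, 9 in all, had as many or more. *Lin28a* had 2 matches and *Igf2bp2*, *Igf2bp3* and *Hmga1* had 1 each.

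The matches differed in their spacing and in the base that follows. In *Hmga2* they began 58, 1295, 1733 and 2591 bases after the stop codon of a 3' UTR of 3014 bases, the densest of the 7 at 1.33 per kb. In *Igf2bp1* the first began 1715 bases after the stop codon and the 3' UTR was 6337 bases long, longer than in all but 0.922% of genes. In *Lin28b* the first match began 36 bases after the stop codon. An A after the match, which is known to strengthen pairing sites of microRNAs, followed 3 of 4 matches in *Igf2bp1*, 1 of 4 in *Hmga2* and 1 of 4 in *Lin28b*, both of 2 in *Lin28a*, the single ones of *Igf2bp2* and *Igf2bp3*, and not the one of *Hmga1*. The printed sequences show this base for all matches of *Hmga2* and for the first match of each other gene.

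**Figure D4:**
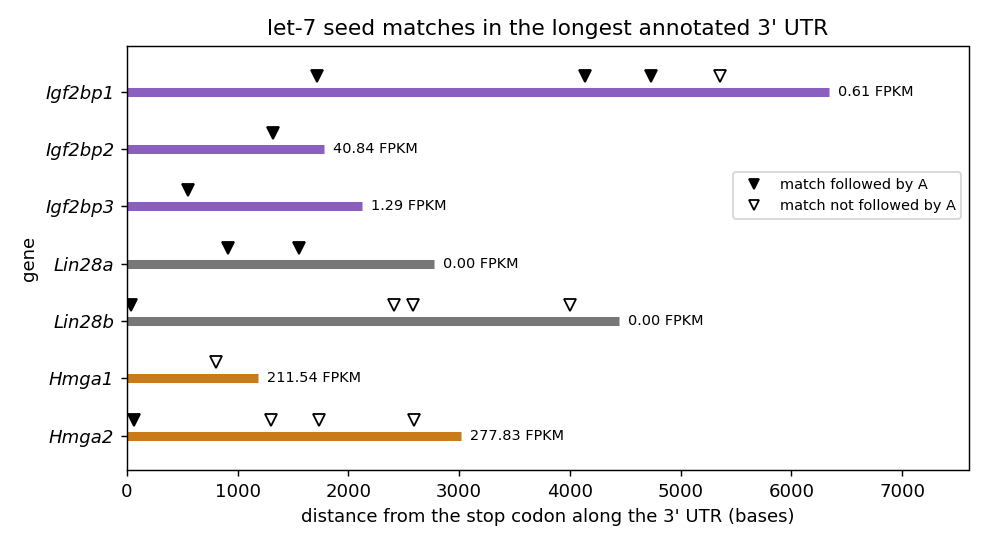
Position of the let-7 seed matches (triangles) along the longest annotated 3' UTR of each gene, in bases from the stop codon, with the mean FPKM at the end of each bar. *Igf2bp1*, *Lin28b* and *Hmga2* carry 4 matches each, and filled triangles are matches followed by an A.

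Among the 9 genes with 4 or more matches, *Hmga2* stood apart. Its mean of 277.83 FPKM compared with 2.08 FPKM for the next, *Nudt12*, and with 0.64 for *Hic2*, 0.61 for *Igf2bp1*, 0.49 for *Nr6a1* and 0.11 for *Mcf2l*. *Lin28b*, *Ptafr* and *Trim6* were at 0 by mean. With 1 match or more, *Hmga1* ranked 10 and *Igf2bp2* ranked 96 of 1754 genes by mean FPKM. No let-7 gene was among the genes measured, so let-7 itself was not analysed here.

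**Figure D5:**
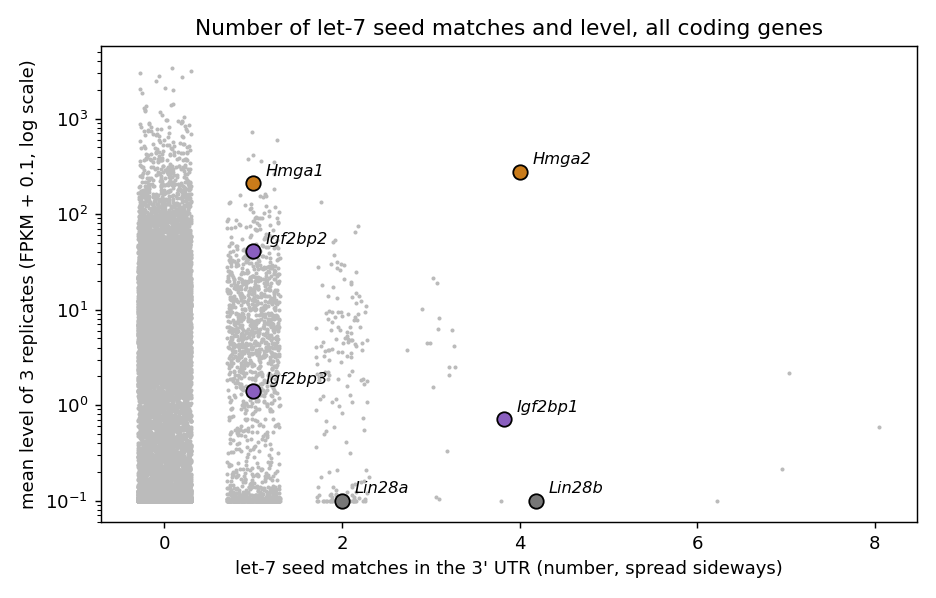
Mean level (FPKM + 0.1, log scale) against the number of let-7 seed matches in the 3' UTR for 19962 genes, spread sideways within each number, with the 7 members as large circles. *Hmga2* is the only gene with 4 or more matches above 100 FPKM, and the other 8 are at or below 2.08 FPKM.

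The mRNAs of the enzymes that make let-7 were present, and so were those of the enzymes that act with LIN28, although LIN28 mRNA was not seen. Of 21 genes of let-7 biogenesis and turnover, 18 were at 1 FPKM or more in all 3 replicates, compared with 44.1% of all genes. The median was 0.277 FPKM over all genes, 11.2 FPKM over those at 1 FPKM or more throughout and 8.55 FPKM over the list. *Drosha*, which cuts the primary transcript, was at 29.84, 33.26 and 29.02 FPKM, its partner *Dgcr8* at 8.31, 8.22 and 9.11, and *Dicer1*, which cuts the hairpin, at 7.24, 6.23 and 7.66 FPKM. These 3 varied little between replicates. *Tut4* and *Tut7*, the uridylyl transferases that LIN28 recruits, were at 3.9, 2.6 and 5.68 FPKM and at 8.22, 7.46 and 10.28 FPKM, and *Dis3l2*, the nuclease that degrades the tailed precursor, at 6.44, 7.32 and 6.5 FPKM. *Tut4* was highest in replicate 4 and lowest in replicate 3. *Trim71*, a stem cell ubiquitin ligase and let-7 target, was listed at 0, 0 and 0.01 FPKM. The highest of the list by mean were the helicases *Ddx5* (65.8 FPKM) and *Ddx17* (44.05) and the RNA-binding protein gene *Khsrp* (34.1), a promoter of let-7 processing.

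The partners of IGF2BP proteins were nearly all expressed. Of 18 genes for proteins found with IGF2BPs in RNA granules or acting in the writing, removal and reading of m6A, an mRNA mark that IGF2BPs can recognise, 17 were at 1 FPKM or more throughout, compared with 44.1% of all genes, and the median was 15.4 FPKM, compared with 0.277 FPKM over all genes. The exception was *Ythdc2*, at 1.09, 0.79 and 1.7 FPKM. Over all genes at 1 FPKM or more throughout, the median was 11.2 FPKM. *Ybx1*, a cold shock protein of mRNA particles, was highest at 433.74, 474.47 and 336.77 FPKM, though 38.9% of its 50-base windows occur elsewhere in the genome. *Pabpc1*, the poly(A)-binding protein, had a mean of 223.51 FPKM, with 32% of its windows found elsewhere, and *Hnrnpu* had a mean of 58.26 FPKM. The m6A writer *Mettl3* was at 11.64, 11.94 and 13.23 FPKM.

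Of 24 known mRNA targets of IGF2BP proteins or let-7, 22 were in the files and 17 of these were at 1 FPKM or more throughout, compared with 44.1% of all genes. The median over the 22 was 6.12 FPKM, compared with 0.277 FPKM over all genes. Over all genes at 1 FPKM or more throughout it was 11.2 FPKM. The 2 targets not in the files were not analysed here. *Igf2*, the growth factor mRNA that gave the IGF2BP family its name, was at 0.03, 0 and 0.02 FPKM. The receptor gene *Igf1r*, by contrast, was at 8.35, 8.61 and 6.83 FPKM. *Actb*, whose mRNA is carried by IGF2BP1 in other cells, had a mean of 2103.08 FPKM, and the cyclins *Ccnd1* and *Ccnd2* had means of 941.21 and 197.75 FPKM. *Ccnd1* was at 920.4, 1123.71 and 779.51 FPKM, highest in replicate 3 and lowest in replicate 4. That order was also seen for *Hmga1*, *Ybx1*, *Cdkn1a* and *Sox10*, among others, which were named after their values were seen. How many of all genes have that order was not analysed here. As given above, the ratio of replicate 3 to replicate 4 rose with GC content. A link between these genes was not tested.

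Other targets spanned a wide range. *Myc* was at 25.94, 25.66 and 27.76 FPKM, and *Mycn*, its neural relative, at 0.43, 0.46 and 0.38 FPKM. *Mitf*, which encodes the master regulator of melanocytes, was at 22.27, 17.4 and 26.77 FPKM. *Cd44*, a cell surface receptor, was higher, at 126.59, 121.26 and 137.4 FPKM. *Nras*, a classical let-7 target, had a mean of 24.07 FPKM.

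All 8 genes of the cell cycle list linked to HMGA proteins were at 1 FPKM or more throughout, compared with 44.1% of all genes. The median was 0.277 FPKM over all genes, 11.2 FPKM over those at 1 FPKM or more throughout and 35 FPKM over the 8. The cell cycle inhibitor *Cdkn1a* was the highest, at 314.15, 381.84 and 273.09 FPKM, followed by *Cdkn2b* with a mean of 68.27 and the cyclin *Ccna2* with 64.51 FPKM. HMGA2 is known to hold down the Ink4a-ARF locus, *Cdkn2a*, in stem cells. *Cdkn2a* was listed at 19.24, 16.49 and 24.32 FPKM in cells whose label states that this locus is lost. A value for the whole gene does not show which of its exons the reads came from, so it does not check the label.

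By pattern over the 3 replicates, the genes nearest to each member above 1 FPKM were taken by the Euclidean distance of log2(FPKM + 0.1). For *Igf2bp2* they were *Cyfip1* (distance 0.073) and *Idh3a* (0.085), and for *Igf2bp3* *Cyp3a13* (0.084) and *Mgst2* (0.1). For *Hmga1* they were *Mtch1* (0.154) and *Ap2s1* (0.176), and for *Hmga2* *Calu* (0.124) and *Pmp22* (0.183). With 3 replicates of 1 condition, a gene is near chiefly when its level is close.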

How the data were processed

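RNA-seq of 3 replicates of melan-a cells was analysed. Per the labels and the methods of the study, libraries were made with a stranded mRNA kit, 10 bases were trimmed from each read, and reads were aligned to mm9 with STAR 2.3.0e and counted with HTSeq 0.5.3p3. The submitters' processing notes also name CASAVA 1.8.2, SAMtools and edgeR. The authors deposited FPKM values for 22698 genes, with TMM scaling between libraries and 2 decimals kept. These are not counts, so no count test was run.

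The 7 members and all gene lists were chosen with earlier results of these data known. Genes named from a list were the 3 with the highest mean and a fixed set of genes tied to LIN28, IGF2BP and melanocytes, and any others were chosen after their values were seen. A few genes are not reported here. Symbols, positions and 3' UTRs came from GENCODE vM1 on NCBIM37 (mm9), which held 22324 of the genes. Library sizes were estimated from the steps between low values of single-transcript genes of 200 to 600 bases. Floors and read numbers from them cover counting error only. Pairs of genes were compared with an exact two-sided sign-flip permutation test of log2(FPKM + 0.1) over the replicates, adjusted with the Benjamini-Hochberg method over 7 pairs. GC trends were fitted by lowess (fraction 0.3). The 50-base windows of the longest coding transcript of each listed gene were searched in both strands of the genome. Python 3.11.15 was used with statsmodels 0.14.6, scipy 1.17.1, numba 0.67.0, pandas 2.3.3 and numpy 2.4.6, and scripts were tested on simulated data.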

Additional observations from a re-analysis of the deposited data

How the results depend on the processing

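The alternatives were pseudocounts of 1 and 0.01, values rescaled to a sum of 1000000 FPKM, the longest transcript as length, removal of the GC trend, the median over replicates, minimums of 0.1 and 10 FPKM and each replicate left out. Dividing by the share of single-copy windows was chosen after seeing the data. The log2 difference of *Hmga2* and *Hmga1*, 0.43 as reported, turned to -0.76 per single-copy share, was 1.19 per longest transcript and lay between 0.17 and 0.67 with a replicate left out. It turned because that alternative raises *Hmga1* more than *Hmga2* by construction, and its share covers only the longest coding transcript of each gene. The order of the IGF2BP genes kept its direction under all alternatives run. At a minimum of 10 FPKM, 7 of the 21 let-7 genes and 7 of the 22 targets passed. Among the 8 other high mobility group genes 3 passed, among the 11 other oncofetal genes 1 and among the 7 fibroblast markers 0. At 0.1 FPKM, 1 of the 7 keratinocyte markers passed. The members' count of 4 of 7 became 3 at 10 FPKM, 5 at 0.1 FPKM and 5 at 1 FPKM on the rescaled values. The share of all genes at 10 or 0.1 FPKM was not analysed here. Rescaled to that sum, which multiplies all genes of a replicate alike, the means were 739.05 for *Hmga2*, 556.46 for *Hmga1*, 108.73 for *Igf2bp2*, 3.44 for *Igf2bp3* and 1.62 for *Igf2bp1*. No paired analysis was possible because there is no second group of samples to pair the replicates with, and the tests paired genes within each replicate. Depth limits the LIN28 genes, where up to 3 reads could be hidden by rounding.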

Other observations

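Genes of other chromatin proteins named for high mobility were listed at lower FPKM than the HMGA genes. Of 8 HMGB and HMGN genes, 7 were at 1 FPKM or more throughout, compared with 44.1% of all genes. The median was 0.277 FPKM over all genes, 11.2 FPKM over those at 1 FPKM or more throughout and 5.89 FPKM over the 8. *Hmgn3*, which encodes a nucleosome-binding protein, was the highest at 92.54, 72.04 and 119.91 FPKM, followed by *Hmgn1* with a mean of 43.32 and *Hmgn2* with 37.97 FPKM. *Hmgb1* was listed at 6.7, 5.56 and 7.88 FPKM, and 72.5% of its 50-base windows occur elsewhere in the genome. The same holds for 89.2% of the windows of *Hmgn2* and 75% of those of *Hmgb3*. The levels of these genes are therefore uncertain, like that of *Hmga1*, and their order against the HMGA genes was not tested. The testis gene *Hmgb4* was listed at 0.

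Of 11 other oncofetal genes, 3 were at 1 FPKM or more throughout, against 44.1% of all genes. *Spp1*, which encodes the secreted protein osteopontin, was at 81.03, 51.68 and 111.47 FPKM. *Tpbg*, the trophoblast glycoprotein gene, had a mean of 2.81 FPKM and the imprinted gene *Peg10* a mean of 2.79 FPKM. *Afp*, the fetal serum protein gene, was at 0.1, 0.18 and 0.08 FPKM, and *Dlk1* and *Magea4* were listed at 0.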
